A study of Mus musculus with 12 samples.

Results

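The genes described here lie in 3 stretches of mouse chromosome 6 that hold imprinted genes. They are Mest, Copg2 and Klf14 of the Mest domain, Calcr, Sgce, Peg10, Ppp1r9a and Asb4 of the Peg10 domain, and Nap1l5 with Herc3, the gene around it. The 10 genes were taken by symbol from tables of 56691 genes, and all are reported whatever their values. The list was chosen with earlier results of these data known. Palatal shelves, from which the secondary palate is made, were dissected from mouse embryos of gestational day 12, and RNA of 3 pools was sequenced for each of 4 groups (12 libraries). The control group was wild type and untreated. The knockout group was conditionally deleted for Dnmt1, which methylates the new DNA strand after replication. A wild type group had received 5-aza-2'-deoxycytidine (AzadC), a cytosine analogue that traps DNA methyltransferases, and another wild type group its vehicle. Each library pooled 2 embryos of the same genotype, and each group drew on 6. The sources used here do not name the Cre driver, the deleted part of Dnmt1, the strain, or how and when AzadC was given.

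Imprinted genes are read mainly from the copy inherited from a given parent. A germline difference in DNA methylation at a control region marks the parental origin, and Dnmt1 keeps that mark through cell division. The Mest, Peg10 and Nap1l5 control regions carry their methylation on the maternal copy, so Mest, Peg10, Sgce and Nap1l5 are known as paternally expressed. Copg2, Klf14, Asb4, Ppp1r9a and Calcr are known as maternally expressed or maternally biased, several of them only in certain tissues. In bulk RNA, reads from the maternal and the paternal copy cannot be told apart, and neither can fewer cells of a type and less RNA per cell.

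The promoter sequence is shown for the Mest start that carries the known imprinted control region, for the Mest start upstream of it, and for Asb4 and Ppp1r9a, whose RNA differed between knockout and control. Each window is the 250 bases before the annotated start, 5′ to 3′ on the gene's strand (the plus strand in all 4), from RefSeq on GRCm38, with each CG dinucleotide, the site that Dnmt1 methylates, in capitals. The windows are chr6:30737800-30738049 for Mest, chr6:30733256-30733505 for the upstream Mest start, chr6:5383136-5383385 for Asb4 and chr6:4903061-4903310 for Ppp1r9a.
Mest: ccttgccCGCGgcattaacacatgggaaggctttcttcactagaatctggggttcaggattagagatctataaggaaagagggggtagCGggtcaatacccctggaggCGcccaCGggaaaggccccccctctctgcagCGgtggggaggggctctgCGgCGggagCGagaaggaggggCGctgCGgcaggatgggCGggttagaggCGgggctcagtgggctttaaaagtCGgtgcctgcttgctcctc
Mest, upstream start: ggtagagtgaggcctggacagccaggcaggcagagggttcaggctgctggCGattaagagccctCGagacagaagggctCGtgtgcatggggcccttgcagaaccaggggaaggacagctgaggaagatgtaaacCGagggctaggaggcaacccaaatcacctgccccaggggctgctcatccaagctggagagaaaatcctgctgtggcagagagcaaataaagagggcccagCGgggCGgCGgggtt
Asb4: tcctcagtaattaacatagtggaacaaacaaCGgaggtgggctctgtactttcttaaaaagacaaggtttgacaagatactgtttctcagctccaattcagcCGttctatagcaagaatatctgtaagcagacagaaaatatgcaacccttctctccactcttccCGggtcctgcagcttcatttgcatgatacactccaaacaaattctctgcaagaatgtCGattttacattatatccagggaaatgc
Ppp1r9a: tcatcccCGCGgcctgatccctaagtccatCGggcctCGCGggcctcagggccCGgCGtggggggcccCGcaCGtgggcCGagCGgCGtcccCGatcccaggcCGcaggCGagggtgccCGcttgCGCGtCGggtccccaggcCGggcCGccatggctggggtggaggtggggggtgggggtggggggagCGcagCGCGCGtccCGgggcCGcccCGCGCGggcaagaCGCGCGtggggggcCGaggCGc
The Ppp1r9a window was the densest of the 4, with 35 CG dinucleotides, a number reached by 2.97% of 32851 windows of the same length. A second Ppp1r9a window and a second Asb4 window, not shown, had 8 CG each (43.0% of windows with as many). The Mest window had 14, the upstream Mest window 7 and the Asb4 window 4, and 29.4%, 46.3% and 62.2% of all windows had at least as many. All were searched on both strands for TGCCGC, the core of the element read by ZFP57, a zinc finger protein that guards methylation at imprinted control regions. It occurred 2 times in the Mest window, both on the opposite strand, and was absent from the other 3. Windows were found for 7 of the 10 genes, Klf14, Peg10 and Sgce having none in the table, and some genes had several. Of their 12 windows 5 held the hexamer, in Mest, Copg2, Calcr and Nap1l5, and 2 of the 5 were Mest windows that overlap almost wholly. Of all windows 8.68% held it.

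The genes lie close together on chromosome 6 (GRCm38, the same sequence as mm10). Mest spans 30723547 to 30748465 on the plus strand and Copg2 spans 30747554 to 30896794 on the minus strand. Their last exons overlap tail to tail over 912 bases, and since the strand setting of the counting is not given, reads from that stretch cannot be told apart. Klf14 follows at 30956023 to 30959078 on the minus strand. In the Peg10 domain, Sgce (4674350 to 4747207, minus) and Peg10 (4747306 to 4760517, plus) start head to head, 98 bases apart. Ppp1r9a spans 4902917 to 5165661 and Asb4 spans 5383386 to 5433022, both on the plus strand, and Calcr lies at 3685680 to 3764714 on the minus strand. Nap1l5 (58905233 to 58907076, minus) sits inside an intron of Herc3 (58831465 to 58920398, plus), with which it shares no exonic base.

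Total expected counts ran from 12640536 to 33113790 per library. Levels are CPM, that is counts scaled with edgeR to a common library total over the 17335 genes with enough counts to test. Means are given ± SD over 3 libraries. Log2 changes and adjusted p-values come from edgeR's quasi-likelihood test with Benjamini-Hochberg adjustment over all tested genes, with 0.05 as the threshold for a call. A p-value here judges a group difference against the spread between pooled libraries. Dnmt1 itself read 201, 180 and 191 CPM in the knockout and 286, 278 and 258 CPM in the control, a log2 difference of -0.52 (edgeR adjusted p = 0.000369). It stood at 408 to 482 CPM in the AzadC and vehicle libraries, and vehicle lay above control by 0.72 on the log2 scale (edgeR adjusted p = 0.000286), so the untreated and vehicle groups differed in the targeted gene. No palatal mesenchyme marker was at 0 in all libraries, but the 10 together summed to 1271 to 1699 CPM in the knockout and 1748 to 2268 CPM in the control, and 4 of 10 were called lower. Other cell types also moved with the groups. The 10 macrophage markers summed to 278 to 315 CPM in the knockout against 59.6 to 129 CPM in the other libraries, and 10 of 10 were called higher in knockout against control. Muscle markers summed to 1105, 523 and 182 CPM in knockout 1 to 3 and 6.22 to 106 CPM in the control (10 of 13 tested called higher). Cartilage markers summed to 303 to 547 CPM in the knockout and 832 to 2630 CPM in the control (7 of 7 tested called lower). With vehicle as reference, 0 of 13 muscle markers were called, while 3 of 7 cartilage and 3 of 10 mesenchyme markers were called lower. The vehicle sums for muscle (45.5 to 442 CPM) and mesenchyme (1425 to 1771 CPM) overlapped those of the knockout. Those for cartilage (1319 to 1466 CPM) did not. Marker and gene lists were compiled with earlier results known.

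Per unit of transcript length, Mest was the most abundant of the 10 genes and Calcr the least. In TPM, a unit corrected for transcript length, the mean over the 12 libraries was 824 for Mest (669 to 1250), 408 for Peg10 (284 to 664) and 285 for Asb4 (142 to 415). Sgce at 46.1, Copg2 at 44.2 and Ppp1r9a at 37.2 TPM came next, followed by Herc3 at 7.73 TPM. Nap1l5 at 0.848, Klf14 at 0.45 and Calcr at 0.0992 TPM were close to the limit of these libraries. The lowest Mest library exceeded the highest Peg10 library, whereas the Peg10 and Asb4 ranges overlapped. Calcr, the calcitonin receptor, had 0 to 11 counts per library, did not pass the filter on low counts and was not tested. So 9 of the 10 genes were tested.

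**Figure D1:**
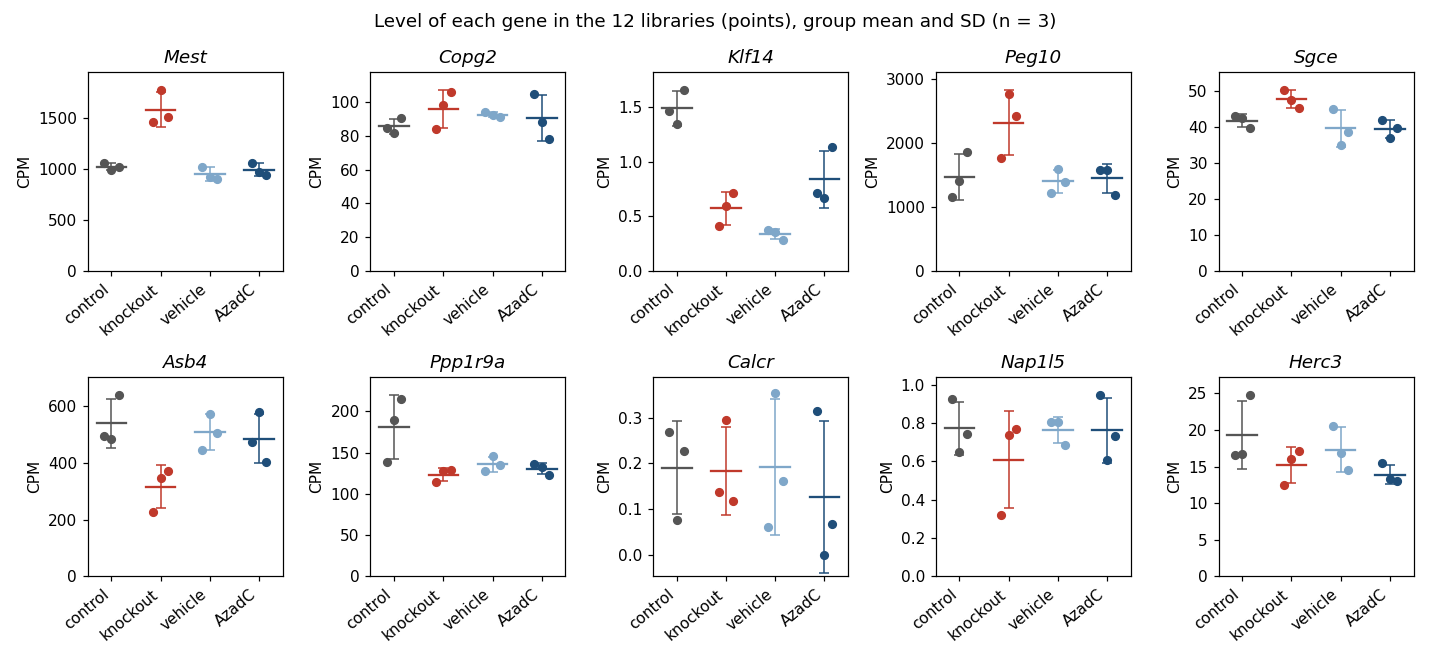
Level of each of the 10 genes in CPM (linear axis) in the control, knockout, vehicle and AzadC groups. Points are libraries, horizontal lines group means and bars the SD (n = 3). The 3 knockout libraries sit above all others for Mest (1466 to 1777 CPM) and below all others for Asb4 (229 to 371 CPM).

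Knockout against control asks how these genes differ where Dnmt1 is reduced. Mest and Peg10, both paternally expressed, were higher by 1.55-fold and 1.58-fold. Klf14, Asb4 and Ppp1r9a, known as maternally expressed, were lower, to 0.385, 0.585 and 0.683 of the control level. Copg2, Sgce, Nap1l5 and Herc3 were not called. The 2 calls in the higher direction stand beside 7.83% of all tested genes and the 3 in the lower direction beside 6.43% (14.3% either way). The median log2 change was -0.34 over the 9 genes and -0.00257 over all tested genes. Over the 4 tested paternally expressed genes (Mest, Peg10, Sgce, Nap1l5) it was 0.41, and over the 4 maternally expressed ones (Copg2, Klf14, Asb4, Ppp1r9a) it was -0.66. Herc3 was put in neither group. Against vehicle the medians were 0.50 and -0.05, so the lower median of the maternally expressed genes was not seen with that reference.

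Mest encodes a membrane protein of the alpha/beta hydrolase fold family and is abundant in embryonic mesoderm. Control libraries 1 to 3 read 1056, 987 and 1024 CPM, and the knockout libraries read 1466, 1777 and 1507 CPM. Vehicle libraries read 1025, 925 and 905 CPM, and AzadC libraries 1063, 971 and 939.8 CPM. All 3 knockout libraries lay above the other 9, which overlapped with each other. The group means were 1022 ± 34.8 CPM in the control and 1583 ± 169 CPM in the knockout, a log2 difference of 0.63 (SE 0.08, 95% interval 0.46 to 0.80, edgeR adjusted p = 0.000218). By p, Mest ranked 207 among the tested genes. Leaving out any 1 of the 6 control and knockout libraries kept the call, with log2 changes of 0.54 to 0.68. Further fits also held a marker score, the mean over the tested markers of log2 CPM centred on each gene. The Mest call was lost with the macrophage score (log2 change 0.39, edgeR adjusted p = 0.807) or the cartilage score (0.50, edgeR adjusted p = 0.211). The macrophage score follows the knockout closely. Cartilage markers also differed between vehicle and control (median log2 change -1.88, 2 of 7 called lower). With the cartilage score, the Mest call against vehicle was kept (0.66, edgeR adjusted p = 0.00574). The call against control was kept with the muscle score (0.66, edgeR adjusted p = 0.00404). RSEM's mean transcript length for Mest was steady, at 2360 to 2399 bases over the 12 libraries.

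Copg2, a coatomer subunit of Golgi transport vesicles, overlaps the end of Mest and stood at 84.5, 81.5 and 90.7 CPM in the control and 83.9, 98.1 and 106 CPM in the knockout. The groups overlapped, and the log2 change was 0.17 (SE 0.10, edgeR adjusted p = 0.317). Its vehicle libraries read 91.4 to 94.0 CPM and its AzadC libraries 78.3 to 105 CPM. Within each library the Mest to Copg2 count ratio was 12.5, 12.1 and 11.3 in the control and 17.5, 18.1 and 14.2 in the knockout. It was 10.9, 10.02 and 9.90 in the vehicle group and 10.1, 10.99 and 12.002 in the AzadC group. The knockout ratios lay above all others, and the mean ratio was 1.39 times the control's and 1.62 times the vehicle's. Each had an exact two-sided permutation p of 0.1, the smallest that 3 against 3 libraries allow. The same p came from vehicle against control, whose ratios did not overlap either (0.858 times).

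Klf14 is an intronless gene for a Krüppel-like transcription factor, known as maternally expressed. It had few reads, with 49, 35 and 29 counts in the control libraries, 9, 12 and 12 in the knockout, 6, 11 and 7 in the vehicle and 9, 11 and 34 in the AzadC group. In CPM these were 1.46, 1.34 and 1.65 for control, 0.411, 0.591 and 0.711 for knockout, 0.371, 0.353 and 0.282 for vehicle and 0.709, 0.666 and 1.14 for AzadC. All control libraries lay above the other 9 and all vehicle libraries below them, while knockout and AzadC overlapped. Knockout was below control by a log2 difference of -1.38 (SE 0.36, 95% interval -2.16 to -0.59, edgeR adjusted p = 0.0226). The call was lost without any 1 of 5 libraries (control 1, 2 or 3, or knockout 1 or 2), with edgeR adjusted p between 0.0539 and 0.092. It was also lost with each of the 4 marker scores in the fit, where the log2 change was -1.35 with muscle (edgeR adjusted p = 0.126), -1.26 with cartilage (0.533), -1.13 with macrophage (0.883) and -1.97 with endothelium (0.0563). With no filter on low counts it was -1.38 (edgeR adjusted p = 0.0689). The fitted change was smaller without knockout 1 (-1.18) or control 3 (-1.29) and with the macrophage or cartilage score. In the other fits that lost the call it was about as large as before or larger.

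Peg10, a gene derived from a retrotransposon and needed for the placenta, varied widely between libraries of a group. Its control libraries read 1150, 1407 and 1857 CPM and its knockout libraries 1770, 2775 and 2423 CPM. The vehicle group stood at 1216, 1589 and 1396 CPM and the AzadC group at 1579, 1587 and 1187 CPM. Knockout 1 lay below control 3, so that knockout and control overlapped, while all 3 knockout libraries lay above the vehicle and AzadC libraries. The log2 change against control was 0.66 (SE 0.19, 95% interval 0.26 to 1.06, edgeR adjusted p = 0.0322). The call was lost without control 1 (0.51, edgeR adjusted p = 0.103), control 2 (0.63, 0.101), knockout 2 (0.51, 0.146) or knockout 3 (0.63, 0.079). It was also lost when only knockout and control were fitted (edgeR adjusted p = 0.0639), on log2 TPM (limma adjusted p = 0.0789), and with the cartilage (0.06, edgeR adjusted p = 0.969), endothelium (0.57, 0.294) or macrophage marker score in the fit (2.88, 0.221). With the muscle score it was kept (1.02, edgeR adjusted p = 0.0167). The fitted change of Peg10 thus ranged widely with the score included.

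Sgce encodes epsilon-sarcoglycan, a membrane glycoprotein of the dystrophin complex, and starts head to head with Peg10. It stood at 43.0, 42.5 and 39.7 CPM in the control and 50.3, 47.6 and 45.4 CPM in the knockout. The knockout libraries lay above the control and AzadC libraries (36.8 to 41.8 CPM) and above the vehicle libraries (35.0 to 45.1 CPM). The difference was small, however, with a log2 difference of 0.19 against control (SE 0.09, 95% interval -0.01 to 0.39, edgeR adjusted p = 0.194). Against vehicle it was 0.27 (edgeR adjusted p = 0.0808). The Peg10 to Sgce count ratio was 26.7, 33.1 and 46.8 in the control and 35.2, 58.3 and 53.4 in the knockout. These overlapped, and the mean ratio was 1.38 times the control's (exact two-sided permutation p = 0.2).

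Asb4, a SOCS box protein that serves as a substrate receptor of a ubiquitin ligase, stood at 497, 485 and 639.7 CPM in the control and 229, 349 and 371 CPM in the knockout. In the vehicle group it read 447, 575 and 507 CPM, and with AzadC 474, 579 and 405 CPM. The highest knockout library lay below every other library, with group means of 540.4 ± 86.2 CPM in the control and 316 ± 76.4 CPM in the knockout. The log2 change was -0.77 (SE 0.18, 95% interval -1.16 to -0.39, edgeR adjusted p = 0.0109), and the call was kept without any 1 of the 6 control and knockout libraries. The lowest Asb4 level was in knockout 1, the library with the most muscle marker RNA. In the AzadC group, too, the library with the most muscle marker RNA (AzadC 3) had the lowest Asb4. This was not so in the control group. In the vehicle group that library (vehicle 2, 442 CPM of muscle markers) had the highest Asb4. With the muscle score in the fit the log2 change was -0.47 (edgeR adjusted p = 0.203). With the endothelium score (-0.93, edgeR adjusted p = 0.0738) or the cartilage score (-1.35, edgeR adjusted p = 0.0503) the call was lost while the fitted change was larger.

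Ppp1r9a encodes neurabin, an actin-binding scaffold for protein phosphatase 1. It read 139, 189 and 215 CPM in the control and 114, 127 and 129 CPM in the knockout. Vehicle libraries read 127, 146 and 134 CPM and AzadC libraries 137, 132 and 123 CPM. Knockout was below control in all libraries, by a log2 difference of -0.55 (SE 0.12, 95% interval -0.82 to -0.29, edgeR adjusted p = 0.00935). In CPM the knockout overlapped with both other groups. The call was kept without any 1 of the 6 control and knockout libraries and lost with the muscle score (-0.32, edgeR adjusted p = 0.223) or the cartilage score (-0.76, edgeR adjusted p = 0.185), where the fitted change was smaller and larger, respectively. Its mean transcript length as estimated by RSEM varied 1.48-fold between libraries, from 5009 to 7416 bases. In fits with the macrophage score, the fitted signs of Ppp1r9a and Asb4 turned (1.24 and 0.58 against control), and only 1 gene of all tested, none of the 9, was called there. What part the cell types played in the changes of Mest, Peg10, Klf14, Asb4 and Ppp1r9a was not tested beyond these fits.

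Nap1l5 is a single-exon gene of the nucleosome assembly protein family, and Herc3, around it, encodes a ubiquitin ligase. Nap1l5 had 31, 17 and 13 counts in the control and 7, 15 and 13 in the knockout, and its log2 change of -0.36 had a 95% interval from -1.23 to 0.51 (edgeR adjusted p = 0.619). A fall as large as the Mest rise lay within that interval and was not detectable at this depth, while a rise of that size lay outside it. Herc3 read 16.5, 16.7 and 24.8 CPM in the control and 12.5, 16.0 and 17.1 CPM in the knockout, with overlap (log2 change -0.34, edgeR adjusted p = 0.244). Calcr had 9, 2 and 4 counts in the control libraries and 3, 6 and 2 in the knockout libraries.

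**Figure D2:**
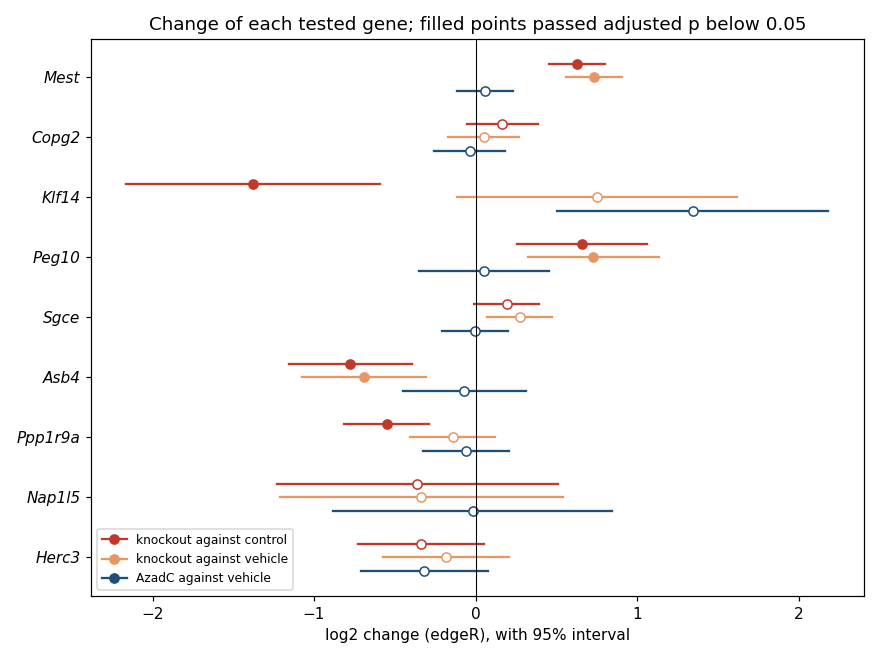
Log2 change of the 9 tested genes in 3 comparisons, with 95% intervals; filled points passed an edgeR adjusted p of 0.05. Mest (0.63 and 0.73) and Peg10 (0.66 and 0.73) were called in the knockout against both control and vehicle, and no gene was called for AzadC against vehicle.

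The knockout was also set against the vehicle group, a comparison that shares the knockout libraries with the previous one. Mest (log2 change 0.73, SE 0.08, edgeR adjusted p = 6.35e-05) and Peg10 (0.73, SE 0.19, edgeR adjusted p = 0.0238) were higher, and Asb4 (-0.69, SE 0.18, edgeR adjusted p = 0.0238) was lower. In all 3, the knockout and vehicle libraries did not overlap. The 2 calls higher and 1 lower stand beside 6.7% and 4.13% of all tested genes. Ppp1r9a was not called here (-0.14, SE 0.12, edgeR adjusted p = 0.529), its vehicle libraries being nearer in CPM to the knockout than to the control. In TPM, however, its knockout libraries (24.6 to 31.7) lay below its vehicle libraries (35.3 to 41.4). No alternative called it against vehicle. Klf14 lay in the opposite direction, above vehicle by 0.75 on the log2 scale (SE 0.40, edgeR adjusted p = 0.272), with separated but low counts. Its change in the knockout therefore depended on the reference group. The Asb4 call was lost without knockout 1 (edgeR adjusted p = 0.063), vehicle 2 (0.0854) or vehicle 3 (0.0697). The Peg10 call was lost without knockout 2 (edgeR adjusted p = 0.119), vehicle 1 (0.0854), vehicle 3 (0.0817) or knockout 3 (0.0656).

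AzadC against vehicle asks what the drug did to the same genes in wild type embryos. None of the 9 tested genes was called by edgeR, DESeq2 or limma-voom, where edgeR called 0.0115% of all tested genes (0.00577% in each direction). Over all genes DESeq2 called 82 and edgeR 2, or 119 with no filter on low counts. At an unadjusted p below 0.05 there was 1, Klf14, whose AzadC libraries lay above its vehicle libraries (log2 change 1.34, SE 0.39, edgeR adjusted p = 0.503). For Mest the log2 change was 0.06, with a 95% interval of -0.11 to 0.23 that excludes a change as large as the 0.63 of the knockout. Peg10 changed by 0.05, Sgce by -0.00, Asb4 by -0.07 and Ppp1r9a by -0.06 on the log2 scale, each with overlapping libraries. For these 4 the edgeR adjusted p was between 0.972 and 1. The median over the 9 genes was -0.02.

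Vehicle and control were both wild type, and 1 of the 9 genes differed between them beside 3.52% of all tested genes (2.06% lower). This was Klf14, lower in vehicle by a log2 difference of -2.13 (SE 0.38, edgeR adjusted p = 0.0116), with no overlap. The call was lost without vehicle 3 (edgeR adjusted p = 0.0568). Ppp1r9a had -0.41 (SE 0.12, edgeR adjusted p = 0.0808), and passed the threshold without control 1 (-0.57, edgeR adjusted p = 0.00501), under DESeq2 (adjusted p = 0.0192) and with no filter on low counts (edgeR adjusted p = 0.00251). For Mest (-0.10), Peg10 (-0.07) and Asb4 (-0.08) vehicle and control libraries overlapped. The labels name no difference between these groups other than the vehicle.

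The knockout effect minus the AzadC effect was tested as an interaction over the 4 groups. It passed for Mest (log2 0.57, SE 0.11, edgeR adjusted p = 0.0146) and for Klf14 (-2.72, SE 0.53, edgeR adjusted p = 0.0135), 1 of 9 genes in each direction beside 2.2% of all tested genes (4.4% either way). For Peg10 (0.61, edgeR adjusted p = 0.215), Asb4 (-0.70, 0.127) and Ppp1r9a (-0.49, 0.126) it did not pass, so their knockout effects were not shown to differ from their AzadC effects. The Klf14 difference lost its call without AzadC 3 (-2.41, edgeR adjusted p = 0.0503). It also holds the gap between vehicle and control (-2.13 for Klf14), and the knockout and AzadC libraries overlapped.

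**Figure D3:**
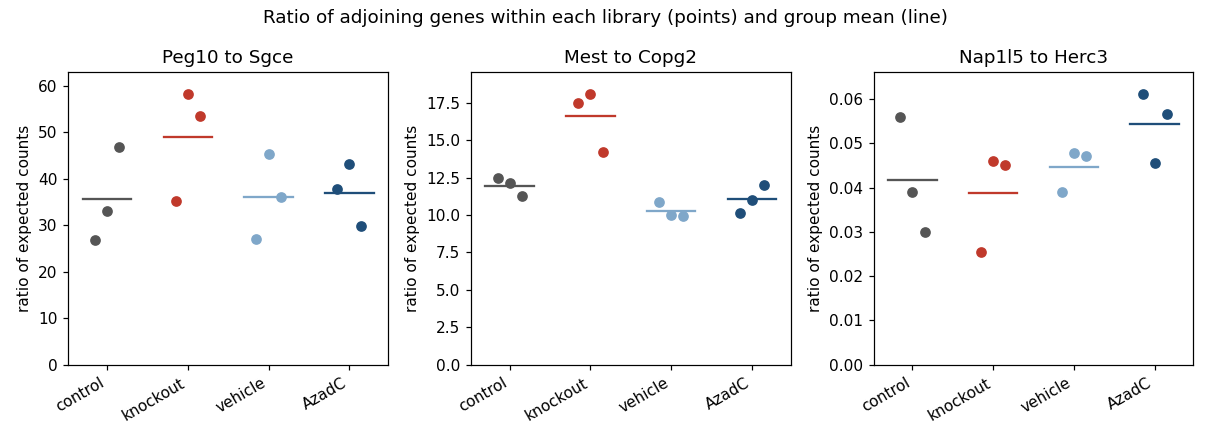
Ratio of expected counts of adjoining genes within each library (points) and group means (lines), on axes from 0. The Mest to Copg2 ratio is 14.2 to 18.1 in the knockout and 9.90 to 12.5 elsewhere, while the Peg10 to Sgce and Nap1l5 to Herc3 ratios overlap between groups.

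Other genes lying between or on either side of the described genes were given the same test, from lists of annotated neighbours. Of those named below, Gng11 and Col1a2 lie between Calcr and Sgce, and Pon2 lies between Ppp1r9a and Asb4. Of 34 tested neighbours, 0 were called higher and 4 lower in knockout against control, beside 7.83% and 6.43% of all tested genes, with 10 at an unadjusted edgeR p below 0.05 and a median log2 change of -0.03. None of the 11 around Mest was called, of which 3 had an unadjusted p below 0.05. Near Peg10, the 3 lower genes of 13 were Gng11, a G protein gamma subunit (-0.73, edgeR adjusted p = 0.00296), Col1a2, a chain of type I collagen (-0.39, edgeR adjusted p = 0.0373), and Pon2, a paraoxonase (-0.33, edgeR adjusted p = 0.0343). Near Nap1l5 it was 1 of 10, Mmrn1, the platelet and endothelial protein multimerin 1 (-0.95, edgeR adjusted p = 0.00162). Mean Col1a2 was 1532 CPM in the knockout, 1492 CPM in vehicle and 2003 CPM in control, so its fall was not seen with vehicle as reference. The means of Gng11, Pon2 and Mmrn1 were lower in the knockout than in vehicle too. Against vehicle, 2 of the 34 neighbours were called higher and 2 lower, beside 6.7% and 4.13% of all tested genes. No neighbour was called for AzadC against vehicle, with 2 at an unadjusted edgeR p below 0.05.

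**Figure D4:**
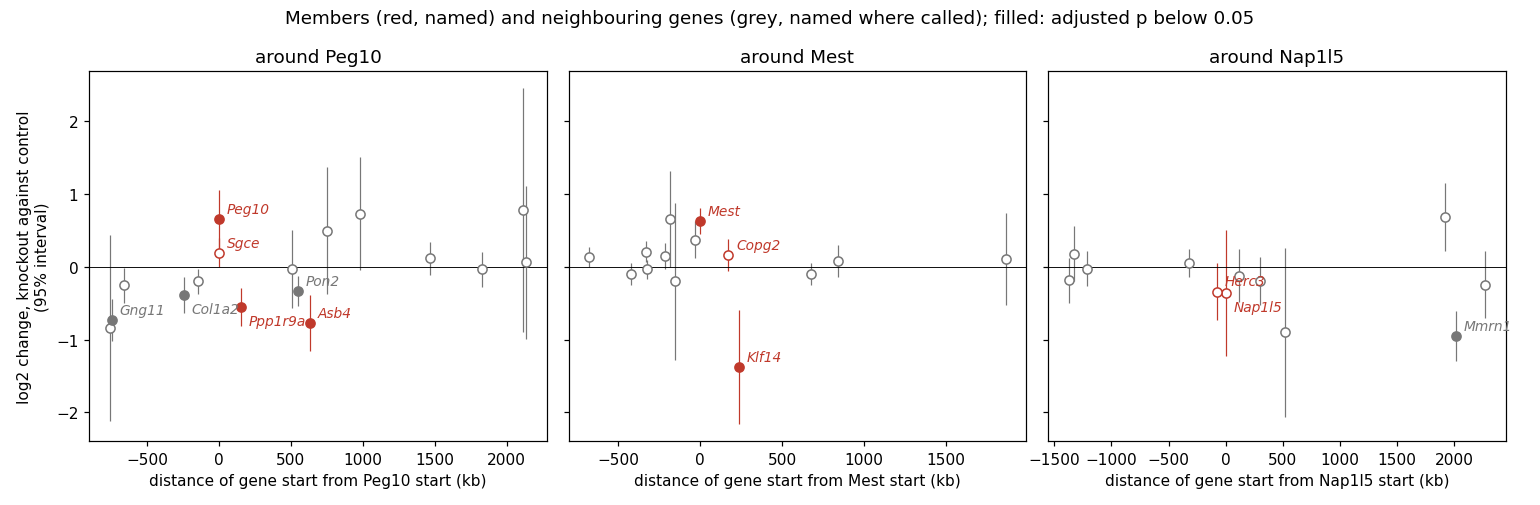
Log2 change in knockout against control (vertical axis, with 95% intervals) by distance in kb of each gene's start from that of Peg10, Mest or Nap1l5. Red points are the genes described here, grey points their neighbours and filled points passed an edgeR adjusted p of 0.05; the filled points above 0 are Mest and Peg10 alone.

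Imprinted genes outside these domains were given the same test. Of 50 tested, 7 were called higher and 4 lower in knockout against control, beside 7.83% and 6.43% of all tested genes, with a median log2 change of -0.04. Among the 29 paternally expressed ones 6 rose and 2 fell, and among the 21 maternally expressed ones 1 rose and 2 fell. The median log2 change was -1.01e-05 over the 29 and -0.08 over the 21. Both Fkbp6 and Zfp264, named below, were counted among the 29. By smallest adjusted p, the higher genes were Fkbp6, a germ cell gene whose imprinting is unsettled (7.76, edgeR adjusted p = 2.87e-06), the amino acid transporter gene Slc38a4 (0.44, edgeR adjusted p = 0.00111), Zfp264 (4.54, edgeR adjusted p = 0.00433) and Peg12 (0.42, edgeR adjusted p = 0.00539). Both very large changes started from levels at or near 0. The lower genes were Grb10, a growth factor receptor adaptor (-0.31, edgeR adjusted p = 0.00325), Zim1 (-0.89, edgeR adjusted p = 0.00755), the zinc finger gene Plagl1 (-0.55, edgeR adjusted p = 0.0233) and the growth factor gene Igf2 (-0.39, edgeR adjusted p = 0.0349). Against vehicle, 8 of the 50 were called higher in the knockout and 3 lower, beside 6.7% and 4.13% of all tested genes. Mean Plagl1 was 316 CPM in the knockout, above vehicle (225) and below control (463). Zim1 (37.9 and 42.9 CPM), Peg12 (33.0 and 31.3) and Igf2 (1810 and 1957) had knockout means near those of vehicle. Fkbp6, Zfp264, Slc38a4 and Grb10 kept their direction against vehicle. For AzadC against vehicle none of the 50 was called by edgeR, with 2 at an unadjusted p below 0.05.

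Across the 12 libraries, log2 CPM of Mest correlated with Peg10 at r = 0.804 and with Sgce at 0.794, and with Asb4 at -0.73. Peg10 and Sgce, which share their start region, had r = 0.353. The profiles of Mest and Peg10 were also looked at more widely. Among 13224 genes with a mean above 1 CPM, the profiles most like that of Mest were Slc5a6 (r = 0.987), Psat1 (0.98), Ccng1 (0.979), Tnfaip3 (0.979) and Slc38a6 (0.976). For Peg10 they were Fgfr1op2 (0.933), Zfp809 (0.925), Rbm44 (0.92), Frzb (0.919) and Rnf182 (0.916). These are descriptions over libraries that share groups, depth and cell makeup.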

How the data were processed

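The mRNA of 12 pooled palatal shelf samples was sequenced. The authors deposited RSEM expected counts per gene, with TPM and transcript lengths beside them, per the file headers. The submitters' processing notes name the build mm10, STAR 2.7.0, RSEM 1.3.1, and also DESeq2, FastQC and Trim Galore. The deposited TPM values were used for levels between genes and in 1 alternative, as log2(TPM + 0.1) in limma. Annotation is GENCODE M21.

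Expected counts were rounded and fitted in R 4.3.3 with edgeR 4.0.16 (filterByExpr, TMM, 1 mean per group over 12 libraries, quasi-likelihood test). SE is the absolute log2 change over the square root of F. The scripts were tested on simulated data. Groups came from the sample labels; replicate numbers were not used for pairing. No 2 libraries of a group agreed within sampling noise. Depth limits Klf14, Nap1l5 and Calcr.

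Named were the 10 genes, Dnmt1, neighbours past the threshold in knockout against control or AzadC against vehicle, up to 4 other imprinted genes in each direction by adjusted p (up to 2 for AzadC), and the 5 most alike genes for Mest and Peg10 by Pearson correlation. The genes and all lists were chosen with earlier results of these data known. Alternatives were DESeq2 1.42.0, limma-voom 3.58.1, scaling by RLE or upper quartile, fits to the groups compared alone, no filter on low counts or one at a mean of 1 CPM, a replicate block, a muscle score covariate, TPM and leaving out each library; macrophage, endothelium and cartilage score covariates, and TPM ratios, were added after seeing the data.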

Additional observations from a re-analysis of the deposited data

Results flagged for a closer look

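The knockout and AzadC effects differed by edgeR's interaction test for Mest, by 0.57 on the log2 scale, and for Klf14, by -2.72. For Mest the AzadC libraries overlapped with the vehicle libraries and the knockout libraries lay above the control. For Klf14 the knockout lay below its control and AzadC above its vehicle, at 6 to 49 counts per library. The 2 reference groups themselves differed, vehicle lying below control by -2.13 on the log2 scale. Knockout lay above vehicle (0.75, not called), and the knockout and AzadC libraries overlapped.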

How the results depend on the processing

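Numbers of the 9 tested genes called were recomputed under each alternative. AzadC against vehicle gave 0 in all of them. In knockout against control, the 2 higher calls became 1 when only the groups compared were fitted, on log2(TPM + 0.1) and with the endothelium score, and 0 with the macrophage or cartilage score. The 3 lower calls became 1 with the endothelium score and 0 with the muscle, macrophage or cartilage score, and were 2 with no filter or above a mean of 1 CPM. In knockout against vehicle, the 2 higher calls were joined by Sgce with limma-voom. They became 1 on TPM and with the endothelium or cartilage score, and 0 with the macrophage score. The 1 lower call became 0 with the muscle, macrophage or endothelium score. In vehicle against control, the 1 lower call became 2 with DESeq2 or no filter, and 0 above a mean of 1 CPM, where Klf14 was not tested, or with the cartilage score. For the difference of the knockout and AzadC effects, higher calls went from 1 to 2 with no filter and to 0 with the macrophage or cartilage score, and lower calls from 1 to 3 with no filter and to 0 above a mean of 1 CPM or with the muscle, macrophage, endothelium or cartilage score. Fitting only the groups compared was not run for the difference, which uses all 4 groups. The macrophage score separates the knockout from all other libraries. With it, the log2 change of Asb4 turned to 0.58 (against control) and 0.56 (against vehicle), and that of Ppp1r9a against control to 1.24. The cause of the other changes was not tested.

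With each library of the groups compared left out in turn, the calls ran from 1 to 2 (higher) and 2 to 3 (lower) in knockout against control, from 1 to 2 (higher) and 0 to 1 (lower) in knockout against vehicle, from 0 to 2 (lower) in vehicle against control and from 0 to 2 (lower) for the difference. Vehicle against control gained a lower call without control 1 and lost it without vehicle 3, and the difference gained another lower call without control 1 and lost its lower call without AzadC 3. Ratios of group means ran from 0.906 to 1.17 for Peg10 to Sgce in AzadC against vehicle and from 0.887 to 1.21 in vehicle against control. For Nap1l5 to Herc3 they ran from 0.819 to 1.13 in knockout against control (1.22 on TPM), from 0.79 to 1.02 in knockout against vehicle and from 0.941 to 1.3 in vehicle against control. Without the filter on low counts, Klf14 in knockout against control had an edgeR adjusted p of 0.0689. Sgce in knockout against vehicle passed with limma-voom (0.31, adjusted p = 0.0443) and without vehicle 1 (0.38, edgeR adjusted p = 0.0203).

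Whether the replicate numbers pair the libraries was not tested. Of 18 same-numbered pairs, 5 had a correlation of deviations above 0.1 (-0.184 to 0.277, median 0.00055). Of 36 other pairs, 4 did (-0.297 to 0.149, median 0.0097). Between control and knockout, same-numbered pairs had 0.277, 0.081 and 0.235, and the others -0.297 to 0.0763. Between control and AzadC, same-numbered pairs had -0.11, -0.0518 and -0.184, and the others -0.0235 to 0.144. With the replicate block, calls over all genes were 2244 against 2473 in knockout against control and 1690 against 1878 in knockout against vehicle, the counts of the 9 genes did not move, and 7 of 12 libraries correlated best with their own number. Counts limit Klf14, Nap1l5 and Calcr most.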
